A study of Mus musculus with 6 samples.

Results

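Chemokines are small secreted or membrane-bound proteins that guide the migration of leukocytes, and they act through receptors with the G protein-coupled fold, which signal through inhibitory G proteins. The 9 genes described here are 7 chemokine ligands (Ccl2, Ccl6, Ccl8, Ccl9, Cxcl12, Cxcl16 and Cx3cl1) and 2 chemokine receptors (Ccr2 and Cxcr4). They were chosen by name as members of this family and were all found, by Ensembl identifier, among the 15663 genes listed for the RPE-choroid of control mice and mice with subretinal fibrosis (SRF). RPE-choroid is the retinal pigment epithelium together with the vascular choroid under it. The 3 control mice were untreated. The 3 SRF mice received 4 laser burns per eye and a further burn on each lesion 10 days later, and RNA was taken 20 days after the second laser. All were male C57BL/6J mice, a strain the labels give as C57BL/6, and were 8 to 10 weeks old at the start, before the laser. Each library is labelled as a separate mouse. The model is a laser injury in young eyes, and nothing in the sources used here says that lesions were dissected from the rest of the RPE-choroid.

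None of the 9 genes differed between SRF and control mice by the thresholds used, which asked of edgeR's quasi-likelihood test for a Benjamini-Hochberg adjusted p under 0.05 together with 0.5 or more of log2 change in either direction. Of the 7 members with enough counts to be tested, 6 had a higher and 1 a lower mean in SRF mice, with a median log2 fold change of 0.20 against 0.00 over all 13454 tested genes. The adjusted p of the tested members lay between 0.804 and 1.0 with edgeR. This test called 0 genes of the whole table (0%), and 943 genes had an unadjusted p under 0.05. DESeq2 called 153 genes (1.14%) and none of the members, whose smallest DESeq2 adjusted p was 0.910. At an unadjusted p under 0.05 in the edgeR fit, 4.16% of the tested genes were higher and 2.85% were lower in SRF mice, and 0 members were in either set.

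Ligand families are named after the first cysteines of the mature protein, which are adjacent in CC chemokines and are separated by a single residue in CXC chemokines. Cx3cl1, also called fractalkine, is the only member of the family in which more residues lie between them. CC ligands mostly attract monocytes, macrophages and lymphocytes. Ccl2 and its receptor Ccr2 are best known for the exit of inflammatory monocytes from bone marrow and their entry into injured tissue, including the laser-injured choroid. Cxcl12 and Cxcr4 act in the retention of haematopoietic cells and in vessel growth. Cxcl16 and Cx3cl1 are made as membrane proteins and can be cut off by the proteases ADAM10 and ADAM17. Microglia and many tissue macrophages carry Cx3cr1, the receptor of fractalkine.

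The stretch of coding sequence around the first cysteines is shown for the 7 ligands because it is the feature that sorts them into families. Each is read 5′ to 3′ on the coding strand from GENCODE M21 transcripts on GRCm38, with the cysteine codons in capitals.
Ccl2: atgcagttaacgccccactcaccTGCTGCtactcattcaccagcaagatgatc
Ccl8: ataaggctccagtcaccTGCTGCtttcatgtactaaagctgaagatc
Ccl6: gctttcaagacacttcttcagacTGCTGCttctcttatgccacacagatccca
Ccl9: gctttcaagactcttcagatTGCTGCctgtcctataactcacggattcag
Cxcl12: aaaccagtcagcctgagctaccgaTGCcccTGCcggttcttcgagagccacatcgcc
Cxcl16: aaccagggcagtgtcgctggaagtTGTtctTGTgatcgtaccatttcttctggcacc
Cx3cl1: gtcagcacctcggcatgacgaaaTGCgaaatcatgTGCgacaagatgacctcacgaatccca

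The 4 CC ligands had 0 codons between the cysteine codons, Cxcl12 and Cxcl16 had 1, and Cx3cl1 had 3. The stretches are in exon 2 of Ccl2 (chr11:82036483-82036535, plus strand), Ccl8 (chr11:82116039-82116085, plus strand), Cxcl12 (chr6:117171484-117171540, plus strand), Cxcl16 (chr11:70459103-70459159, minus strand) and Cx3cl1 (chr8:94778028-94778089, plus strand). In Ccl6 (chr11:83589362-83589414, minus strand) and Ccl9 (chr11:83575902-83575951, minus strand) they are in exon 3 of 4. Ccl6 and Ccl9 are the closest pair of CC members, with 64.6% identity over the aligned coding sequences, and the other 5 pairs had 44.1% to 49.7%. The coding sequence of Cx3cl1, with 395 codons, and that of Cxcl16, with 246 codons, are longer than those of the other ligands, which have 97 to 148 codons.

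Levels between genes were compared in FPKM, which is scaled by transcript length. Cxcl12 had the highest level of the family members, between 102 and 146 FPKM over the 6 libraries. Cx3cl1 (31.2 to 35.0 FPKM) and Cxcl16 (23.1 to 35.5 FPKM) followed and overlapped each other. Both were above every value of the remaining members. Ccl6 (7.36 to 14.96 FPKM) and Ccl8 (7.07 to 11.7 FPKM) also overlapped. Ccl9 (3.10 to 4.05 FPKM) and Ccr2 (3.24 to 5.43 FPKM) shared nearly the same range. The lowest levels were those of Ccl2 (1.33 to 3.69 FPKM) and Cxcr4 (0.84 to 1.71 FPKM). Thus the order had gaps below Cxcl12, below the pair of membrane-bound ligands and below the pair of Ccl6 and Ccl8, and neighbours within the steps were not separated by their spread.

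**Figure D1:**
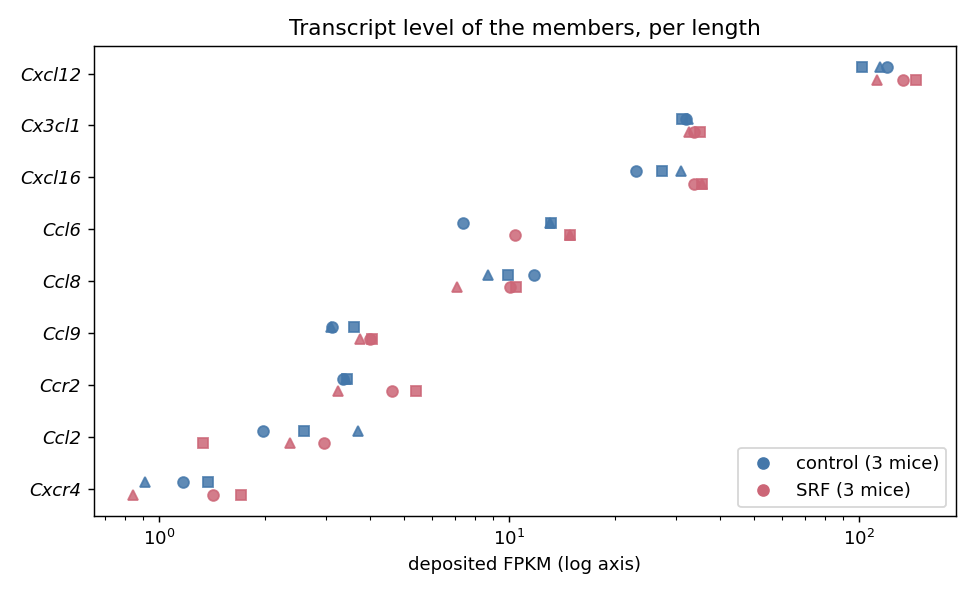
Deposited FPKM of the 9 members on a logarithmic axis, with 1 point per mouse (circle, square and triangle for mouse 1, 2 and 3 of a group) and the groups in colour. Cxcl12 lies between 102 and 146 FPKM in all libraries, and Ccl2 and Cxcr4 lie at or under 3.69 FPKM.

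Counts were also scaled to a common library size (CPM, TMM-normalized). Totals per library lay between 13667310 and 24356023 counts on genes. Libraries were set apart by photoreceptor RNA: the 12 photoreceptor markers summed to 12986 CPM in control mouse 1 and 12376.0 CPM in SRF mouse 3, and to 732 to 1770 CPM in the other 4. The markers of RPE were listed for 10 of 10 genes and summed to 43704 to 51999 CPM in control mice and 29054 to 38875 CPM in SRF mice. At an unadjusted p under 0.05 in the edgeR fit 5 of 10 were lower (2.85% of all tested genes). DESeq2 called 2 of them, both lower, beside 1.14% of all tested genes called either way. The 14 macrophage markers, all listed, summed to 1537 to 1975 CPM in control mice and 3599.7 to 5226 CPM in SRF mice. Of these, DESeq2 called 5, all higher, beside 1.14% of all tested genes called either way. In edgeR 12 had a higher mean in SRF mice, 7 of them at an unadjusted p under 0.05 (4.16% of all tested genes), and the median log2 fold change was 0.61. The other 2 were Csf1r (log2 fold change -0.03) and Mertk (-0.11), and Itgam was at 0.03. Lyz2 was the largest part of the sum, with means of 913 CPM in control and 2568 CPM in SRF mice. Ctss had means of 180 and 551 CPM, so the sum mainly follows these genes and is no measure of macrophage number. Mast cell markers, 5 of 6 listed (Ms4a2 was not), summed to 39.1 to 44.7 CPM in control mice and 61.7 to 70.5 CPM in SRF mice. All 5 tested genes were higher on average, with a median log2 fold change of 1.27. Of these, 4 were at an unadjusted p under 0.05 in edgeR (4.16% of all tested genes higher) and 2 were called by DESeq2 (1.14% of all tested genes either way). No gene in the tables has a count under 1 in any library. In bulk tissue, fewer cells of a type and less RNA per cell cannot be told apart.

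Ccl2, monocyte chemoattractant protein 1, was counted 22, 40 and 73 times in the control mice and 44, 19 and 34 times in the SRF mice. Only control mouse 3 exceeded 50 counts, so that Ccl2 (chr11:82035571-82037453) was not among the tested genes. Normalized, it was at 1.63, 2.17 and 3.04 CPM in control mice and 2.37, 1.06 and 1.90 CPM in SRF mice, with means of 2.28 ± 0.709 and 1.78 ± 0.668 (SD, n = 3). The groups overlapped, and the highest and the lowest value stood in different groups. In a fit without the count filter its log2 fold change was -0.37 ± 0.43 (SE), with a 95% interval from -1.38 to 0.64 (edgeR, adjusted p = 0.993). When each mouse was left out in turn the value lay between -0.64 and -0.10, the latter without control mouse 3. The gene Gm17268 overlaps Ccl2 on the opposite strand and is not listed, and without a stated strandedness reads of the pair cannot be told apart.

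Ccl8, monocyte chemoattractant protein 2, was the tested member with a lower mean in SRF mice. It was at 6.09, 5.20 and 4.50 CPM in control mice and 5.07, 5.22 and 3.58 CPM in SRF mice. The groups overlapped, and SRF mouse 3 was the lowest of all. This gave a log2 fold change of -0.18 ± 0.28 (SE), with a 95% interval from -0.84 to 0.48 (edgeR, adjusted p = 1.0). Ccl8 spans chr11:82115185-82116799. The direction was not stable, as the log2 fold change was 0.085 with the 2 libraries of high photoreceptor RNA left out.

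Ccl6 and Ccl9 are CC ligands made by macrophages and other myeloid cells, and both act on Ccr1. Ccl6 (chr11:83587882-83593087) was at 10.8, 19.4 and 19.1 CPM in control mice and 14.8, 21.0 and 21.2 CPM in SRF mice. Control mouse 1 and SRF mouse 1 were below the other 4 mice, which lay close together. The log2 fold change was 0.20 ± 0.27 (SE), with a 95% interval from -0.43 to 0.84 (edgeR, adjusted p = 0.999). It depended on control mouse 1, without which it was -0.018, and it was -0.11 when SRF mouse 3 was left out as well. Photoreceptor RNA was high in both of these libraries, and with its level as a covariate the log2 fold change was 0.21. The transcript E230016K23Rik lies opposite Ccl6 and is not listed.

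Ccl9 (chr11:83572919-83578636) was the only tested member whose groups did not overlap in CPM. It was at 9.51, 11.04 and 9.45 CPM in control mice and at 11.9, 11.9 and 11.1 CPM in SRF mice. The means were 10.0 ± 0.904 and 11.6 ± 0.438 CPM (SD, n = 3). The lowest SRF mouse was only slightly above the highest control mouse. The log2 fold change was 0.22 ± 0.17 (SE), with a 95% interval from -0.17 to 0.61 (edgeR, adjusted p = 0.931), and the exact permutation test (two-sided) gave p = 0.1, the smallest that 3 against 3 mice allow. Over all tested genes, 6.71% had higher and 6.43% had lower values in every SRF mouse than in any control mouse, and no result about the members is read from 1 of 7. The summed macrophage markers were also higher in every SRF mouse, and their part in the Ccl9 value was not tested.

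**Figure D2:**
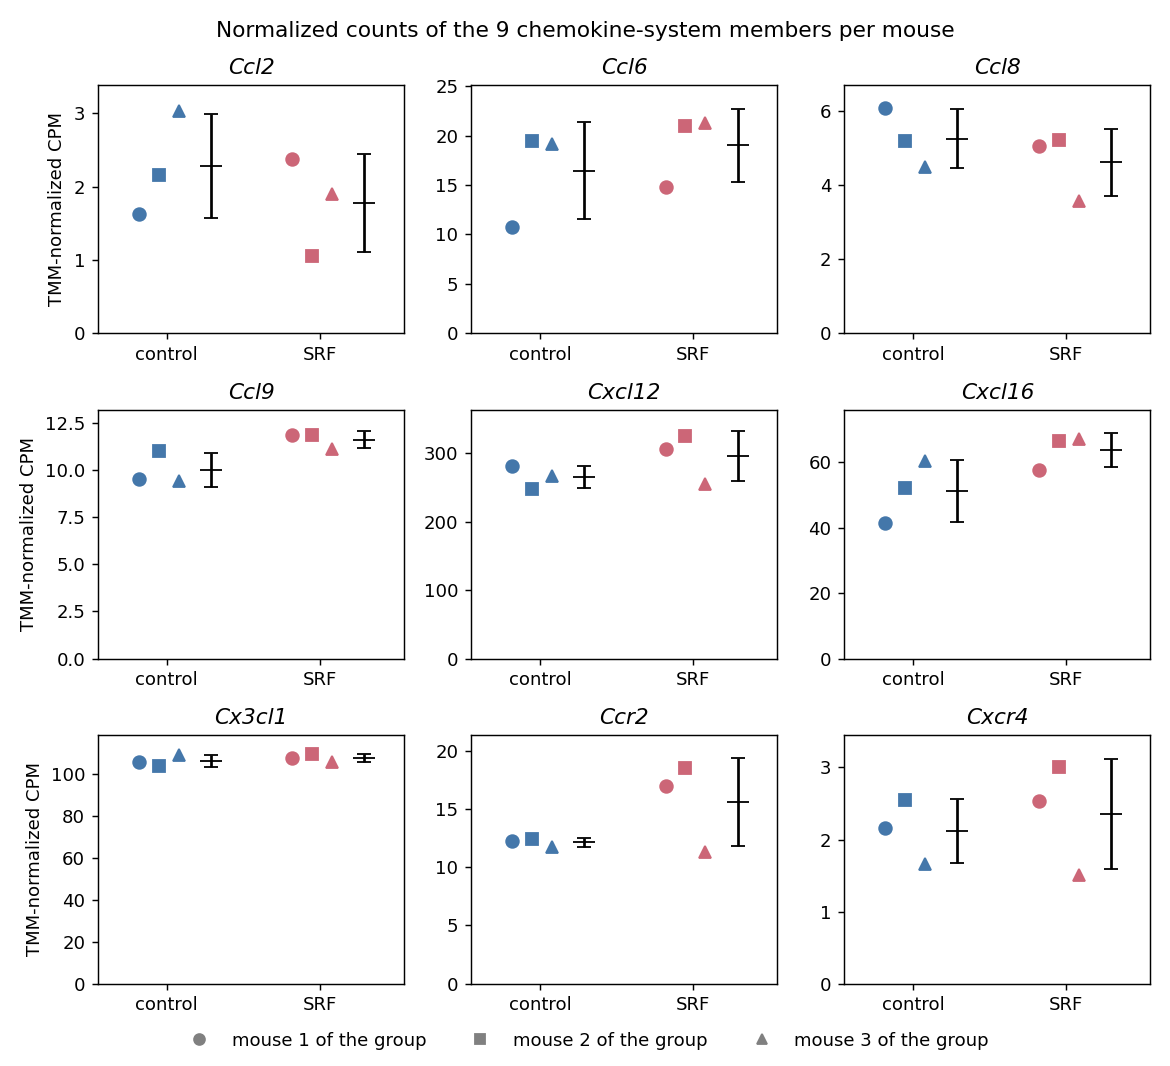
TMM-normalized CPM of each member in each mouse, with axes from 0, and the mean ± SD of the 3 mice of a group in black at the right of its points. The groups overlap in all panels but that of Ccl9, where the SRF mice lie between 11.1 and 11.9 CPM and the control mice between 9.45 and 11.04 CPM.

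Cxcl12, the ligand of Cxcr4, was at 281, 248 and 267 CPM in control mice and 306, 326 and 256 CPM in SRF mice. SRF mice 1 and 2 were above all control mice, and SRF mouse 3 was within their range. The means were 265 ± 16.4 and 296 ± 36.2 CPM (SD, n = 3), and the log2 fold change was 0.16 ± 0.13 (SE), with a 95% interval from -0.15 to 0.46 (edgeR, adjusted p = 0.941). The size depended on single SRF mice, at 0.083 without SRF mouse 2 and 0.26 without SRF mouse 3. Cxcl12 spans chr6:117168535-117181367 and, with 3780 to 6403 counts, is the most deeply counted member.

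Cxcr4 (chr1:128588199-128592293) was much lower and was not tested, since only SRF mouse 2 exceeded 50 counts. Its counts were 29, 47 and 40 in control mice and 47, 54 and 27 in SRF mice, or 2.15, 2.54 and 1.67 CPM against 2.54, 3.00 and 1.51 CPM. The highest and the lowest value were both in SRF mice. In the fit without the count filter the log2 fold change was 0.15 ± 0.38 (SE), with a 95% interval from -0.75 to 1.04 (edgeR, adjusted p = 1.0). It was -0.0040 without control mouse 3 and -0.082 without SRF mouse 2. Ackr3, the atypical receptor that binds and removes Cxcl12, was at 40.6, 67.7 and 76.5 CPM in control mice and 41.0, 47.3 and 39.0 CPM in SRF mice. Control mouse 1 lay within the range of the SRF mice, and the log2 fold change of Ackr3 was -0.54 ± 0.24 (SE; edgeR, adjusted p = 0.738).

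Cxcl16, a membrane-bound ligand that also works as a scavenger receptor for oxidized lipoprotein, had the smallest unadjusted p of the members. It was at 41.4, 52.1 and 60.3 CPM in control mice and 57.8, 66.4 and 67.1 CPM in SRF mice. SRF mouse 1 was below control mouse 3, and the other values were separated. The log2 fold change was 0.31 ± 0.16 (SE), with a 95% interval from -0.07 to 0.70 (edgeR, unadjusted p = 0.0932, adjusted p = 0.804). In FPKM the groups did not overlap, with 23.1, 27.2 and 30.9 in control mice and 33.6, 35.5 and 35.5 in SRF mice. The share of all genes separated in FPKM is not given here, so no result is read from this. By limma the difference on log2(FPKM + 0.1) was 0.37 (unadjusted p = 0.0264, adjusted p = 0.570). On this scale every member except Ccr2 was above its edgeR value, such as Cx3cl1 (0.08 against 0.02), Cxcl12 (0.21 against 0.16) and Ccl6 (0.29 against 0.20). Ccr2 was below its own (0.34 against 0.36). A difference in scaling between FPKM and normalized counts is therefore not separated from the Cxcl16 value. Without the 2 libraries of high photoreceptor RNA the log2 fold change was 0.14, without control mouse 1 alone it was 0.19, and with the photoreceptor level as a covariate it was 0.31. Cxcl16 (chr11:70453983-70459984) overlaps the gene Zmynd15 on the opposite strand, which had 38 to 94 counts and a log2 fold change of -0.01.

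Cx3cl1, fractalkine, had the narrowest interval. It was at 106, 104 and 109 CPM in control mice and 107, 109 and 106 CPM in SRF mice. The values of the 2 groups lay within each other, with means of 106 ± 2.74 and 107 ± 1.78 CPM (SD, n = 3). This gave a log2 fold change of 0.02 ± 0.09 (SE), with a 95% interval from -0.20 to 0.24 (edgeR, adjusted p = 1.0), or a fold change between 0.870 and 1.18. Cx3cl1 spans chr8:94772009-94782427.

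The receptor of fractalkine, Cx3cr1, had higher values in all SRF mice. It was at 21.2, 16.6 and 21.2 CPM in control mice and 25.3, 43.2 and 38.8 CPM in SRF mice. The groups did not overlap, and SRF mouse 1 was the nearest to the control mice. The log2 fold change was 0.87 ± 0.22 (SE), with a 95% interval from 0.34 to 1.39, which did not pass the adjustment with edgeR (adjusted p = 0.410) or with DESeq2 (adjusted p = 0.0595). Macrophages and microglia carry this receptor. The summed macrophage markers were higher in all SRF mice, and the 7 microglia markers, all listed, summed to 226 to 434 CPM in control mice and 312 to 513 CPM in SRF mice. The part of these cells in the Cx3cr1 value was not tested. Cxcr6, the receptor of Cxcl16, was at 4.31, 3.36 and 2.87 CPM in control mice and 1.996, 2.67 and 3.58 CPM in SRF mice, and its groups overlapped (log2 fold change -0.35 ± 0.36, SE; edgeR, adjusted p = 0.971).

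Neither of the proteases that release the membrane-bound ligands was called by edgeR or DESeq2. Adam10 had means of 125 ± 13.7 CPM in control and 115 ± 4.39 CPM in SRF mice (SD, n = 3), with a log2 fold change of -0.12 ± 0.12 (SE; edgeR, adjusted p = 0.971). Adam17 had means of 42.6 ± 10.4 and 49.4 ± 3.84 CPM (SD, n = 3), with a log2 fold change of 0.21 ± 0.19 (SE; edgeR, adjusted p = 0.950). Both sets of values overlapped between the groups.

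Ccr2, the receptor of Ccl2 and a marker of inflammatory monocytes, had the highest log2 fold change of the 7 tested members in this fit, although Cxcl16 was above it with limma on log2 FPKM and without control mouse 3, SRF mouse 1 or SRF mouse 2. It was at 12.3, 12.4 and 11.7 CPM in control mice and 16.9, 18.5 and 11.3 CPM in SRF mice. SRF mice 1 and 2 were above all control mice, and SRF mouse 3 was below them. The means were 12.1 ± 0.346 and 15.6 ± 3.76 CPM (SD, n = 3), and the log2 fold change was 0.36 ± 0.21 (SE), with a 95% interval from -0.14 to 0.86 (edgeR, adjusted p = 0.856). Without SRF mouse 3, one of the 2 libraries with high photoreceptor RNA, the log2 fold change was 0.55 with an unadjusted p of 0.0109 and an adjusted p of 0.290 (edgeR). With control mouse 1 left out as well it was 0.55. Without SRF mouse 2 it was 0.22 (edgeR, unadjusted p = 0.382), so that its size depended on single SRF mice. With the photoreceptor level as a covariate it was 0.32 (edgeR, unadjusted p = 0.144). Ccr2 spans chr9:124101950-124113557.

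The summed monocyte markers overlapped between the groups. Of 8 such genes, 7 were listed (Fcnb was not) and 5 tested, and they summed to 52.4 to 66.0 CPM in control mice and 44.2 to 66.4 CPM in SRF mice. Within the SRF group their sum was highest in mouse 2 and lowest in mouse 3, as Ccr2 was. Within the control group it was highest in mouse 3 (66.0 CPM), where Ccr2 was lowest (11.7 CPM). The part of these markers in the Ccr2 value was not tested. Ly6c2, which marks inflammatory monocytes, had a log2 fold change of -1.20 ± 0.34 (SE; edgeR, adjusted p = 0.426). It was among the 2 tested markers of this list that were lower at an unadjusted p under 0.05 in the edgeR fit (2.85% of all tested genes). Of the 5 tested, 3 had a lower and 2 a higher mean in SRF mice, the latter being S100a4 (log2 fold change 0.31) and F13a1 (0.26), and the median was -0.24. The markers of T and NK cells, which can also carry Ccr2 and Cxcr6, summed to 14.2 to 15.1 CPM in control mice and 7.60 to 8.36 CPM in SRF mice. Of these 8 genes 7 were listed (Trac was not), and only Nkg7 had enough counts to be tested. Nkg7 had means of 6.35 CPM in control and 3.18 CPM in SRF mice, a large part of this low sum.

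**Figure D3:**
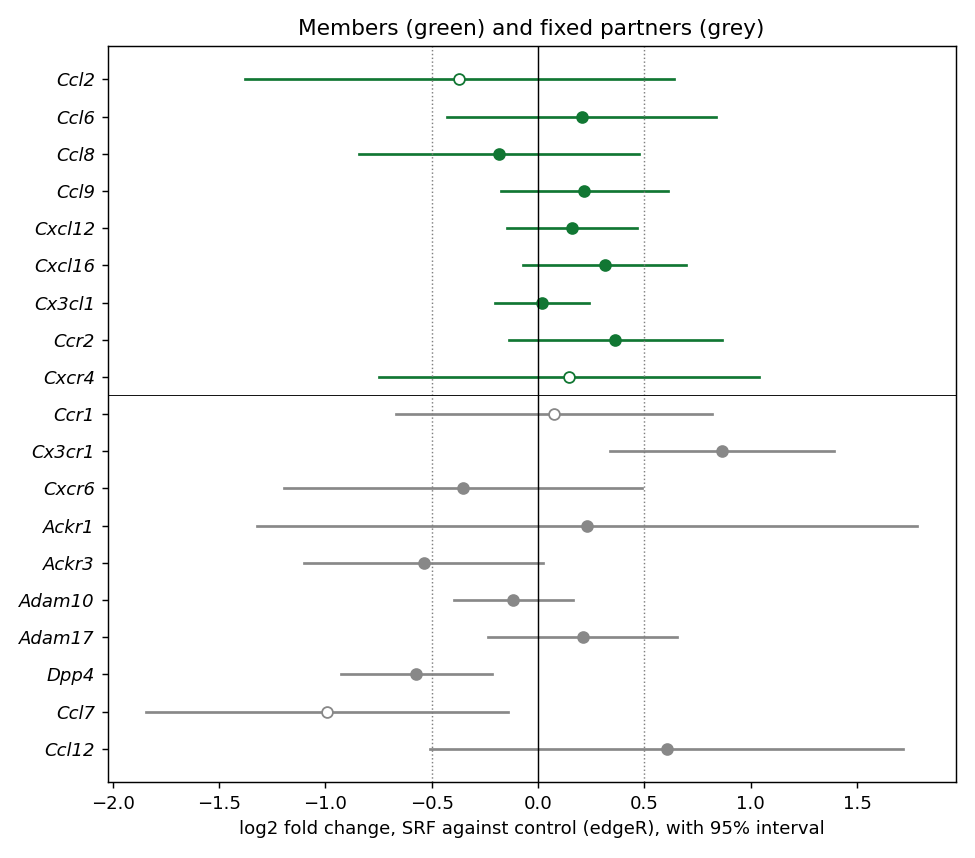
Log2 fold change of SRF against control mice (edgeR) with its 95% interval for the 9 members, in green, and for 10 known partners, in grey, with dotted lines at -0.5 and 0.5 and open points for genes that had too few counts to be tested. The intervals of all 9 members include 0, and those of Cxcl12 and Cx3cl1 lie within the dotted lines.

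Ccr1, the receptor of Ccl6 and Ccl9, had too few counts to be tested and had a log2 fold change of 0.08 ± 0.32 (SE) in the fit without the count filter. Ackr1, which binds many chemokines on venular endothelium, varied between 1.40 and 5.76 CPM over the 6 libraries, and both extremes stood in SRF mice (log2 fold change 0.23 ± 0.66, SE; edgeR, adjusted p = 1.0).

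The CC members lie among other CC ligand genes on chromosome 11, in clusters that arose by gene duplication. The cluster of Ccl2 and Ccl8 (chr11:82035571-82116799, 81.2 kb) also holds Ccl7, Ccl11 and Ccl12. Of its 5 listed genes 4 had a negative and 1 a positive log2 fold change, between -0.99 and 0.61. Ccl7, another ligand of Ccr2, was at 2.60, 2.54 and 4.58 CPM in control mice and 1.46, 1.72 and 1.73 CPM in SRF mice. All SRF mice were below all control mice, and the log2 fold change was -0.99 ± 0.36 (SE) in the fit without the count filter (edgeR, adjusted p = 0.661), since Ccl7 had too few counts to be tested. Ccl12, likewise a ligand of Ccr2, was at 2.97, 1.14 and 2.91 CPM in control mice and 3.99, 2.39 and 4.303 CPM in SRF mice, with overlapping groups (log2 fold change 0.61 ± 0.47, SE; edgeR, adjusted p = 0.936).

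The cluster of Ccl9 and Ccl6 (chr11:83525778-83664683, 139 kb) also holds Ccl5, Ccl3 and Ccl4. Here 4 of the 5 listed genes had a positive and 1 a negative log2 fold change, between -0.61 and 1.64. Ccl3, macrophage inflammatory protein 1 alpha, was at 1.63, 0.65 and 0.54 CPM in control mice and 3.45, 3.67 and 1.51 CPM in SRF mice. The groups overlapped, through SRF mouse 3 and control mouse 1. Its log2 fold change of 1.64 ± 0.60 (SE) had an unadjusted p of 0.0287 and an adjusted p of 0.604 (edgeR). Ccl4, macrophage inflammatory protein 1 beta, was at 1.86, 1.03 and 1.67 CPM in control mice and 2.27, 4.06 and 2.07 CPM in SRF mice. All SRF mice were above all control mice, and the log2 fold change was 0.88 ± 0.42 (SE) in the fit without the count filter (edgeR, adjusted p = 0.810), since Ccl4 was not tested. Ccl5, which attracts T cells and monocytes, was at 5.27, 6.33 and 4.62 CPM in control mice and 3.94, 3.72 and 2.96 CPM in SRF mice. Here all SRF mice were below all control mice, with a log2 fold change of -0.61 ± 0.27 (SE; edgeR, adjusted p = 0.750). Ccl4 and Ccl5 fall outside the rule for named genes and were chosen after their values were seen. Whether the 2 clusters differ was not tested.

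**Figure D4:**
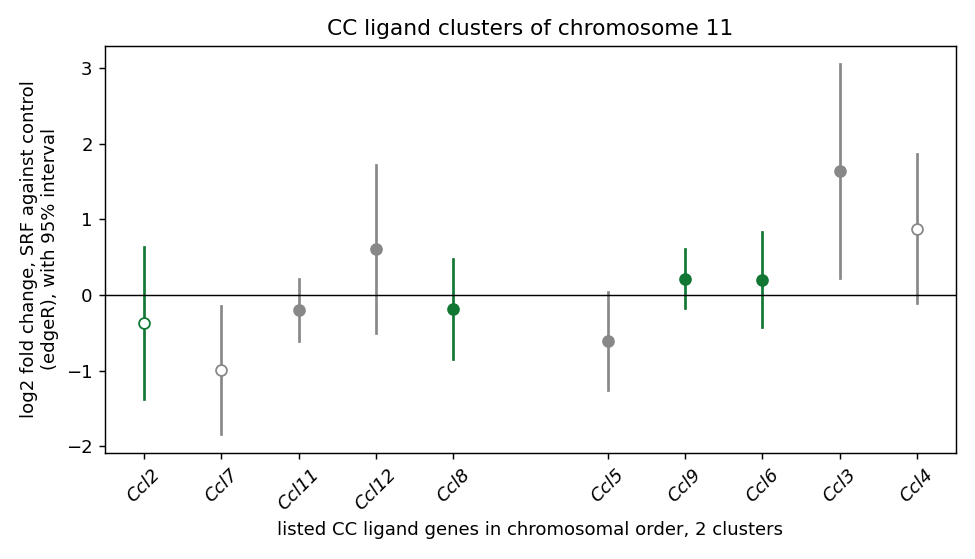
Log2 fold change of SRF against control mice (edgeR) with its 95% interval for the 10 listed CC ligand genes of the 2 clusters on chromosome 11, in chromosomal order, with the members in green and open points for genes with too few counts to be tested. The values run from -0.99 for Ccl7 to 1.64 for Ccl3, and the 4 members lie between -0.37 and 0.22.

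Many chemokine genes were not among the listed ones. Of 38 chemokine ligands in the family lists 30 were listed, and of 18 typical receptors 13 were. The ligands not listed were Ccl1, Ccl17, Ccl20, Ccl26, Cxcl2, Cxcl3, Cxcl11 and Cxcl15, and the receptors were Ccr3, Ccr4, Ccr6, Ccr8 and Cxcr1. Since listed genes have at least 1 count in each library, a gene that is not listed may still have had counts in some of them.

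Over all other genes of the chemokine system, 64 of 78 were listed and 47 tested. Of these, 9 were higher and 1 lower at an unadjusted p under 0.05 in the edgeR fit, beside 4.16% and 2.85% of all tested genes. None was called by edgeR, and DESeq2 called 2, both proteases, beside 1.14% of all tested genes. The lists were chosen with earlier results known, so no result about the family is read from these counts. The median log2 fold change was 0.17. Among the other CC ligands, 8 of 17 could be tested and Ccl3 was the only one at this p. Of the other CXC and XC ligands 5 of 14 were tested and none was at this p, with 1 higher and 4 lower. Among the other receptors 5 of 16 were tested and Cx3cr1 was at this p. The 5 atypical receptors were all tested and none was.

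Of the 7 tested proteases that process chemokines, 2 were higher and 1 lower at an unadjusted p under 0.05 in edgeR (4.16% and 2.85% of all tested genes). Mmp12, the macrophage elastase, which can truncate CC and CXC ligands, was at 13.2, 19.3 and 20.02 CPM in control mice and 92.5, 85.8 and 98.3 CPM in SRF mice. The groups were far apart. The log2 fold change was 2.39 ± 0.18 (SE), with an adjusted p of 0.0504 in edgeR and 5.14e-27 in DESeq2. Mmp14, a membrane-anchored metalloproteinase, had means of 113 ± 19.2 and 179 ± 26.1 CPM (SD, n = 3) and a log2 fold change of 0.66 ± 0.17 (SE), with an adjusted p of 0.410 in edgeR and 0.0498 in DESeq2. Dpp4, a peptidase that trims the amino terminus of Cxcl12, had lower values in all SRF mice, with 35.5, 44.9 and 50.3 CPM in control mice and 29.3, 28.5 and 30.2 CPM in SRF mice. Its log2 fold change of -0.57 ± 0.15 (SE) did not pass the adjustment (edgeR, adjusted p = 0.413). The summed macrophage markers were also higher in every SRF mouse than in any control mouse, and their part in the Mmp12 value was not tested.

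Signalling genes used by chemokine receptors mostly had higher means in SRF mice, with 15 of 17 tested genes above and 2 below 0 and a median log2 fold change of 0.36, beside 50.3% above 0 over all tested genes. Of the 17, 5 were higher at an unadjusted p under 0.05 in edgeR (4.16% of all tested genes) and 7 had higher CPM in every SRF mouse than in any control mouse (6.71% of all tested genes). The 5 were Gnai2, an inhibitory G protein subunit (0.72 ± 0.30, SE), Grk6, a receptor kinase (0.45 ± 0.18), Dock2, an exchange factor for Rac (0.46 ± 0.19), Pik3r5, a subunit of phosphoinositide 3-kinase gamma (0.87 ± 0.32), and Coro1a, an actin regulator of leukocytes (0.44 ± 0.11). The edgeR adjusted p of these 5 was between 0.407 and 0.710, and none was called by DESeq2. Grk6, Dock2, Pik3r5 and Coro1a were among the 7, and the values of Gnai2 overlapped. Leukocytes of several kinds express these genes. The summed markers of macrophages and of mast cells were higher in every SRF mouse. Those of T and NK cells, of which only 1 had enough counts to be tested, were lower in every SRF mouse. The part of these cells was not tested.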

How the data were processed

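RNA-seq of RPE-choroid from 3 control and 3 SRF mice was analysed. The authors filtered reads with FASTP, mapped them and counted them per gene with StringTie, and the deposited counts are unnormalized whole numbers. FPKM values were deposited too, scaled by transcript length and mapped reads. The aligner, build and strandedness are not given in the sources used here. Symbols and positions were taken from GENCODE M21 (GRCm38), which held 15659 of 15663 identifiers.

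The 13454 genes whose count exceeded 50 in 2 or more libraries were tested with edgeR 4.0.16 in R 4.3.3 (TMM, quasi-likelihood test, installed default of legacy = TRUE, group as the only term), with Benjamini-Hochberg adjustment over these genes. Standard errors were derived from the log2 fold change and the F statistic of this fit, and 95% intervals from these with a t quantile. Both are approximate. Members under the filter were read from a fit without it. For a single gene a two-sided exact permutation test of mean CPM was used. Totals were 13667310 to 24356023 counts, and the median standard error of 0.19 (log2) limits what can be seen. The scripts were tested on simulated data.

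Alternatives were DESeq2 1.42.0, limma 3.58.1 on log2 FPKM with a pseudocount of 0.1 or 1, other normalizations, filters and quasi-likelihood forms, a replicate block, a photoreceptor covariate and leaving out mice. The members and gene lists were chosen with earlier results of these data known. All members and their known partners were to be named, and of the other lists up to 6 genes at an unadjusted p under 0.05 or called by DESeq2. Marker genes most like a member were to be named for members at that p, of which there were 0. Some results for genes of these lists are not reported here. No libraries were identical. Libraries are labelled as separate mice, so p-values measure the spread between these mice.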

Additional observations from a re-analysis of the deposited data

How the results depend on the processing

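No member was called under any alternative, and Ccl2 stayed lower and Ccl9, Cxcl12, Cxcl16, Cx3cl1 and Ccr2 stayed higher in SRF mice in all 17 alternatives run for each. Ccl6 ranged from -0.018 to 0.35 when each mouse was left out, with the reversal at -0.018 without control mouse 1 and reversed to -0.11 without control mouse 1 and SRF mouse 3, Ccl8 to 0.085 without these 2, and Cxcr4, which ranged from -0.082 to 0.38, to -0.0040 without control mouse 3 and -0.082 without SRF mouse 2, on the log2 scale. The cause was not tested. The number of members higher at an unadjusted p under 0.05 was 0 in the reported fit and 1 with limma at either pseudocount (Cxcl16), 2 without control mouse 1 and SRF mouse 3 (Cxcl12 and Ccr2), and between 0 and 1 when each mouse was left out (Cxcl16 without control mouse 3, Ccr2 without SRF mouse 3). With the replicate block it was 1 (Cxcl16, 0.33 on the log2 scale, unadjusted p = 0.0353 in edgeR). The block rests on mouse numbers of different animals, as the libraries are labelled as separate mice. Deviations of same-numbered mice correlated at -0.467, 0.501 and -0.281 across 13454 genes, and 0 of 3 control mice correlated best with their own number. Control mouse 1 and SRF mouse 3, both with high photoreceptor RNA, correlated at 0.603. With such a shared difference between libraries, these correlations cannot decide whether mice are paired.

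Genes called over the whole table, 0 in the reported fit and 0 with the block, were 153 with DESeq2, 1 each with upper-quartile normalization, no count filter, filterByExpr, legacy = FALSE or the photoreceptor covariate, 2 with limma at either pseudocount, and 153 in edgeR without control mouse 1 and SRF mouse 3. Leaving out each mouse gave 0 to 343 genes, from 0 to 5 in edgeR (5 without control mouse 1) and from 67 (without SRF mouse 2) to 343 (without SRF mouse 3) in DESeq2. Ccl2 and Cxcr4 had at most 73 and 54 counts in a library and were the 2 members under the count filter.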

Other observations

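The deposited FPKM and the deposited counts did not move alike for every gene of the chemokine system. Rac2, a small GTPase of leukocytes that was chosen after its values were seen, was at 4.24, 4.97 and 3.84 FPKM in control mice and 15.2, 14.6 and 11.9 FPKM in SRF mice, while its counts gave a log2 fold change of 0.40 ± 0.17 (SE). Cxcl5, a neutrophil-attracting ligand also chosen after its values were seen, had 669 counts in control mouse 3 and 53 to 157 counts in the other 5 mice.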
